A study of Mus musculus with 24 samples.

Results

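The genes described here encode channel proteins and adhesion molecules known from contacts between the oocyte and the granulosa cells around it. They are the connexins Gja4 (connexin 37), Gja1 (connexin 43) and Gjc1 (connexin 45), and the classical cadherins Cdh1 (E-cadherin), Cdh2 (N-cadherin) and Cdh3 (P-cadherin). They were chosen by symbol from the deposited RPKM table, by no rule on measured values but with earlier results of these data known. Of the 6 genes named, 5 were analysed among 16940 genes in all. Gja1 was not analysed here.

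Oocyte RNA was sequenced from B6/129 mice of 2 genotypes. KO females carried ZP3-Cre with Snf2h(fl/fl), and WT females carried Snf2h(fl/fl). All groups therefore shared the floxed allele, and Cre was given for the KO groups only, so an effect of Cre and one of Snf2h loss cannot be told apart. The ZP3 promoter drives Cre in growing oocytes, not in granulosa cells. Growing oocytes were taken at 40 to 45 µm (GO1) and at 50 to 55 µm (GO2). Fully grown oocytes, above 70 µm, were taken without hormone stimulation (nFGO) or after it (FGO). A library was made from 20 oocytes, with 2 libraries in each of 8 groups (16 in total), and the labels give no age. Nothing in the labels ties replicates to separate animals, so p-values measure only the spread between these libraries, which may be technical. The 4 nFGO libraries were labelled polyA RNA and the other 12 total RNA, so for nFGO a difference between stages and one between library sets cannot be told apart. In bulk libraries such as these, fewer cells holding a transcript and less of it per cell cannot be told apart.

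Oocytes and granulosa cells are joined by cytoplasmic extensions of the granulosa cells that cross the zona pellucida and end on the oocyte surface. Gap junctions at these ends are built from connexins, with connexin 37 on the oocyte side and connexin 43 mainly between granulosa cells, and they pass small molecules such as cyclic GMP and metabolites. In mice without Gja4, follicles do not mature and oocytes do not complete growth. Cadherins hold membranes together through calcium-dependent binding of like molecules, and their cytoplasmic tails bind beta-catenin, which links to actin through alpha-catenin. E-cadherin and N-cadherin are both found at oocyte and granulosa cell surfaces.

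The libraries matched their labels in the deleted gene. Smarca5, which encodes Snf2h, lay between 0.70 and 2.06 RPKM in the KO libraries and between 13.9 and 48.7 RPKM in the WT libraries, with log2 fold changes of -4.40 to -3.90. WT FGO replicate 2 stood apart from its partner, with 13.9 against 48.7 RPKM of Smarca5, and the FGO tests of the 5 genes were repeated without it. All 12 oocyte markers (among them Zp3, Gdf9 and Nobox) reached 1 RPKM in every library, summing to 11547 to 28766 RPKM in KO libraries and 12498 to 30375 RPKM in WT libraries. Of 17 granulosa cell markers, 8 were analysed, and they summed to 15.0 to 73.1 RPKM in KO libraries and 17.4 to 45.9 RPKM in WT libraries. Of 9 theca and stroma markers, 3 were analysed, summing to 0.152 to 1.22 RPKM in KO libraries and 0.993 to 12.5 RPKM in WT libraries. Of 6 blood and endothelium markers only Cd68 was analysed, at 2.36 to 5.65 RPKM in KO libraries and 1.83 to 3.56 RPKM in WT libraries. None of 5 expanded cumulus markers was analysed. Library totals were 832384 to 1011538 RPKM. Read depth per library is unknown.

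Values are RPKM, reads scaled to transcript length and to the mapped reads of the library, which set genes of different length on 1 scale. Differences were tested with limma on log2(RPKM + 1) over the 14557 genes that reached 1 RPKM in 2 or more libraries, a filter that all 5 genes passed. A gene is called where its adjusted p (Benjamini-Hochberg, over all genes tested) is below 0.05. The added 1 RPKM shrinks the fold changes of low genes, here Cdh2 and Gjc1.

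Cdh2 was the gene of the group that differed between genotypes in both fully grown stages, and it was lower in KO oocytes. It was called at nFGO and at FGO, and in the mean of the 4 stages Cdh2 and Gjc1 were called, both lower in KO. Gja4 was called higher in KO at FGO. Cdh1 and Cdh3 were called at no stage. By stage, 0 of 5 genes were called at GO1, where 6.63% of all genes tested were called, and 0 of 5 at GO2, against 7.64% of all genes. At an unadjusted p below 0.05 the counts were 2 at GO1 (Gjc1, Cdh1) and 2 at GO2 (Gjc1, Cdh3). At nFGO 1 of 5 genes was called, against 16.2% of all genes, and at FGO 2 of 5, against 17.8%. In the mean of the 4 stages it was 2 of 5, against 33% of all genes. The 5 genes are few for a share, so they are described singly.

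**Figure D1:**
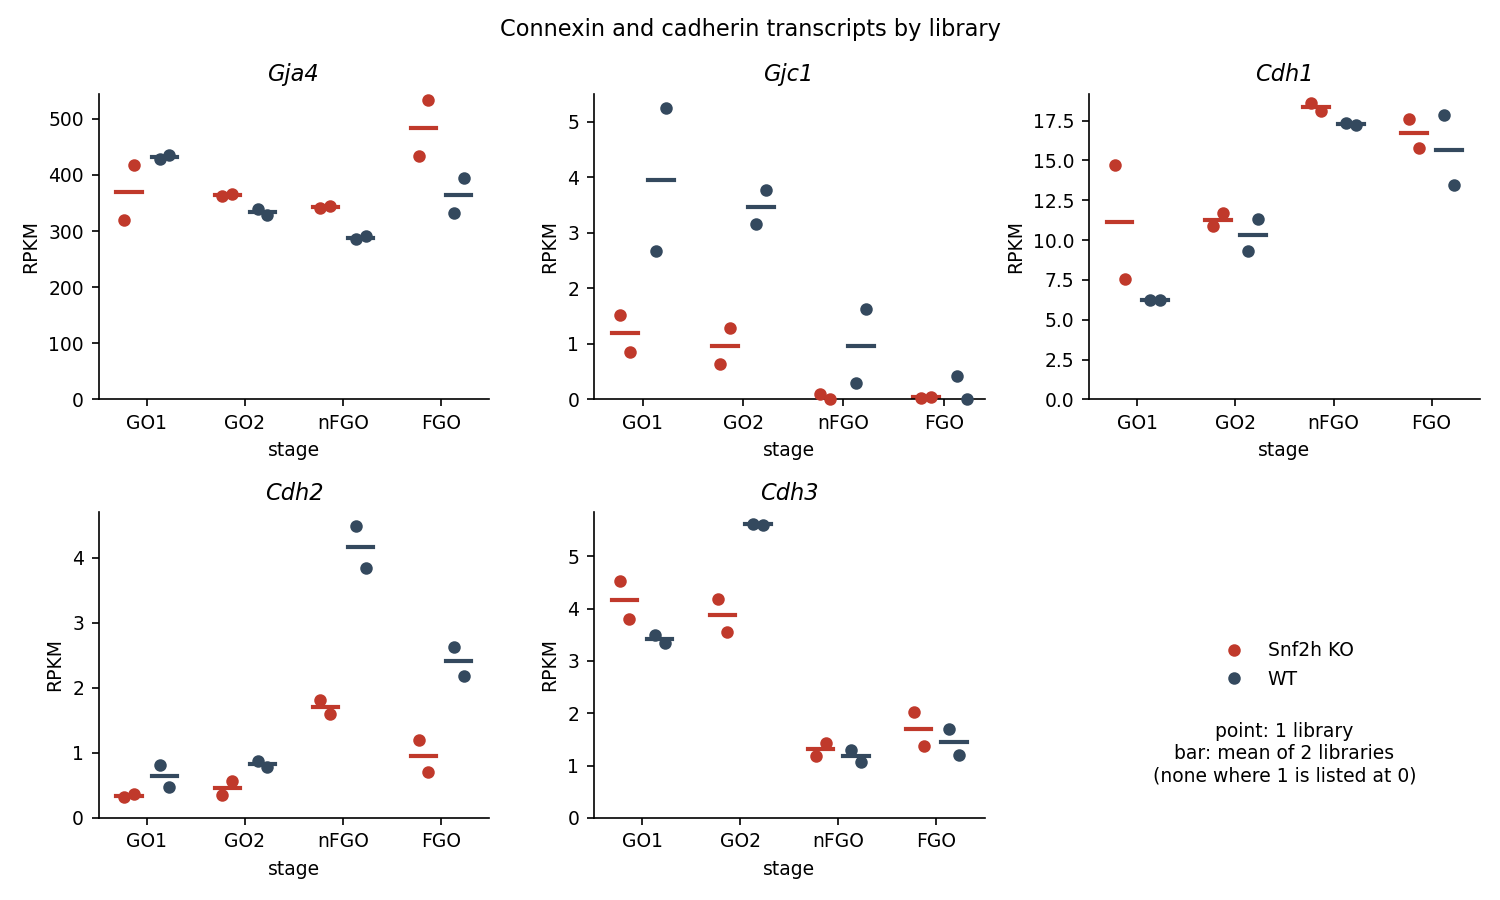
RPKM (y axis, linear) of Gja4, Gjc1, Cdh1, Cdh2 and Cdh3 in each library, by stage, with KO left of WT; points are libraries and bars are means of 2 libraries, left out where 1 library is listed at 0. Cdh2 lies lower in KO at all 4 stages, Gjc1 is highest in growing WT oocytes (up to 5.25 RPKM), and Cdh3 is at most 2.02 RPKM in fully grown oocytes.

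Gja4 encodes the connexin that the oocyte itself contributes to its junctions with granulosa cells. The gene (ENSMUSG00000050234.7) lies on chromosome 4, at 127311421 to 127314039 on the minus strand of mm10. It was by far the most abundant of the 5, ranking between 298 and 724 among 16940 genes in every library. In GO1 oocytes Gja4 had 319.9 and 418 RPKM in KO libraries, against 429 and 435 RPKM in WT libraries. KO lay below WT there without overlap, and the KO libraries were wide apart. In GO2 oocytes the values were 363 and 365 RPKM in KO libraries, against 339 and 329 RPKM in WT libraries. In nFGO oocytes they were 342 and 344 RPKM in KO libraries, against 286 and 291 RPKM in WT libraries. KO lay above WT at both of these stages without overlap, with KO to WT ratios of the means of 1.09 at GO2 and 1.19 at nFGO. In FGO oocytes Gja4 reached 434 and 533 RPKM in KO libraries, against 333 and 395 RPKM in WT libraries. The KO FGO mean was the highest group mean of Gja4, although WT GO1 replicate 2 (435 RPKM) lay above KO FGO replicate 1 (434 RPKM).

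The log2 fold change of Gja4 at FGO was 0.41 (SE 0.13, limma adjusted p = 0.0440), a mean of 483 ± 70.1 RPKM in KO oocytes and 363.7 ± 43.8 RPKM in WT oocytes (SD, n = 2 each). Without WT FGO replicate 2 it was 0.53 (limma adjusted p = 0.0425). The call was lost without KO FGO replicate 2 (0.26, limma adjusted p = 0.298) and without WT FGO replicate 1 (0.28, limma adjusted p = 0.240). It was also lost with no filter on low values (limma adjusted p = 0.0519), without the nFGO libraries (0.0771), with no variance trend (0.0807) and in a fit of the 4 FGO libraries alone (0.143). The authors' deposited table marks Gja4 as of similar level at every stage, FGO included. At the stages other than FGO Gja4 was not called, with log2 fold changes of -0.24 at GO1, 0.12 at GO2 and 0.25 at nFGO. The 95% interval at GO1 was -0.52 to 0.03, and at nFGO -0.03 to 0.52. At GO1 it became -0.43 (limma adjusted p = 0.0315) without KO GO1 replicate 2. The mean of the 4 stages was 0.13 (limma adjusted p = 0.123), and it was called without KO GO1 replicate 1 (0.18, limma adjusted p = 0.0207) and after quantile normalization (0.22, limma adjusted p = 0.0116). The KO effect at FGO less that at GO1 was 0.65 (limma adjusted p = 0.0709), a comparison added after the values were seen, and was not called. Without WT FGO replicate 2 it was 0.77 (limma adjusted p = 0.0653). Oocyte marker sums differed alongside at FGO, with 11547 and 11837 RPKM in KO libraries and 12498 and 18209 RPKM in WT libraries, and their part in the result was not tested.

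Gjc1 encodes connexin 45, a channel protein best known from the heart and vascular muscle. The gene (ENSMUSG00000034520.14) lies on chromosome 11, at 102799579 to 102819700 on the minus strand of mm10. It was a low transcript that was lower in KO oocytes over the mean of the 4 stages. In GO1 oocytes Gjc1 had 1.53 and 0.85 RPKM in KO libraries, against 2.67 and 5.25 RPKM in WT libraries. In GO2 oocytes it had 0.64 and 1.29 RPKM in KO libraries, against 3.15 and 3.77 RPKM in WT libraries. All growing KO libraries therefore lay below all growing WT libraries. In nFGO oocytes it had 0.092 RPKM in 1 KO library and was listed at 0 in the other, against 0.298 and 1.62 RPKM in WT libraries. In FGO oocytes it had 0.031 and 0.036 RPKM in KO libraries, against 0.413 RPKM in 1 WT library and a listed 0 in the other. Only at FGO did the genotypes overlap.

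In the mean of the 4 stages the log2 fold change of Gjc1 was -0.84 (SE 0.17, limma adjusted p = 0.00259), with a 95% interval of -1.21 to -0.47. It was -0.90 (limma adjusted p = 0.00321) without WT FGO replicate 2. Stage by stage Gjc1 missed the threshold, with -1.15 at GO1 (limma adjusted p = 0.0634), -1.20 at GO2 (limma adjusted p = 0.0510), -0.82 at nFGO and -0.20 at FGO. The FGO value was -0.45 without WT FGO replicate 2. GO2 passed it when library medians were made equal (limma adjusted p = 0.0486) and when the nFGO libraries were left out (limma adjusted p = 0.0474). GO1 and GO2 both passed it with a pseudocount of 5. At nFGO it passed without WT nFGO replicate 1, where the fold change was -1.33 (limma adjusted p = 0.0351). The group means gave KO to WT ratios of 0.301 at GO1 and 0.279 at GO2. The authors' deposited table marks Gjc1 down-regulated at GO1 and GO2 and as of low expression at nFGO and FGO.

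Cdh1 encodes E-cadherin, the classical cadherin of epithelia, present on the oocyte surface. The gene (ENSMUSG00000000303.12) lies on chromosome 8, at 106603351 to 106670246 on the plus strand of mm10. It was the second most abundant of the 5 genes in every library, and its KO and WT levels lay close together from GO2 onward. In GO1 oocytes Cdh1 had 14.7 and 7.58 RPKM in KO libraries, against 6.26 and 6.23 RPKM in WT libraries. In GO2 oocytes it had 10.9 and 11.7 RPKM in KO libraries, against 9.30 and 11.3 RPKM in WT libraries. At GO1 KO lay above WT without overlap, with 1 KO library well above the other, and at GO2 the genotypes overlapped. In nFGO oocytes Cdh1 had 18.6 and 18.1 RPKM in KO libraries, against 17.3 and 17.2 RPKM in WT libraries. KO lay above WT there too without overlap, by a ratio of the means of 1.06. In FGO oocytes it had 17.6 and 15.8 RPKM in KO libraries, against 17.8 and 13.5 RPKM in WT libraries.

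The log2 fold change of Cdh1 at GO1 was 0.68 (SE 0.23, limma adjusted p = 0.0979) and was not called, while the authors' deposited table marks it up-regulated there, with a log2 fold change of 0.84. The value turned on single libraries. Without KO GO1 replicate 2 it was 1.12 (limma adjusted p = 0.00302), and without KO GO1 replicate 1 it was 0.24. The mean of the 4 stages, 0.25 (limma adjusted p = 0.124), was called only without that same replicate 2 (0.36, limma adjusted p = 0.00452). At GO2, nFGO and FGO the fold changes were 0.12, 0.08 and 0.10, with 95% intervals of -0.38 to 0.63, -0.42 to 0.59 and -0.41 to 0.60. The FGO value was -0.09 without WT FGO replicate 2.

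Cdh2 encodes N-cadherin, the cadherin typical of neural and mesenchymal cells and also of granulosa cells. The gene (ENSMUSG00000024304.14) lies on chromosome 18, at 16588877 to 16809246 on the minus strand of mm10. In GO1 oocytes Cdh2 had 0.318 and 0.360 RPKM in KO libraries, against 0.808 and 0.474 RPKM in WT libraries. In GO2 oocytes it had 0.353 and 0.569 RPKM in KO libraries, against 0.879 and 0.778 RPKM in WT libraries. Levels in growing oocytes stayed below 1 RPKM in both genotypes, with KO below WT. In nFGO oocytes Cdh2 had 1.81 and 1.60 RPKM in KO libraries, against 4.50 and 3.85 RPKM in WT libraries. In FGO oocytes it had 1.19 and 0.70 RPKM in KO libraries, against 2.64 and 2.19 RPKM in WT libraries. KO lay below WT without overlap at all 4 stages, a pattern that 5.46% of all genes tested (795 of 14557) also showed.

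At nFGO the log2 fold change of Cdh2 was -0.93 (SE 0.18, limma adjusted p = 0.00465), a mean of 1.70 ± 0.15 RPKM in KO oocytes and 4.17 ± 0.46 RPKM in WT oocytes (SD, n = 2 each). At FGO it was -0.82 (SE 0.18, limma adjusted p = 0.00790), a mean of 0.95 ± 0.34 RPKM in KO oocytes and 2.41 ± 0.32 RPKM in WT oocytes (SD, n = 2 each). The KO to WT ratios of the means were 0.408 at nFGO and 0.393 at FGO. The nFGO call held with each library left out in turn. The FGO call held without WT FGO replicate 2 (-0.91, limma adjusted p = 0.0240) and was lost without KO FGO replicate 2 (-0.64, limma adjusted p = 0.0816), without WT FGO replicate 1 (-0.72, limma adjusted p = 0.0558) and in a fit of the 4 FGO libraries alone (limma adjusted p = 0.0754). In the mean of the 4 stages the fold change was -0.59 (SE 0.088, limma adjusted p = 0.000377), and -0.61 (limma adjusted p = 0.000779) without WT FGO replicate 2. The growing stages gave -0.29 at GO1 and -0.33 at GO2, neither called.

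Of the stroma markers, Dcn was lower in the KO than in the WT libraries of both fully grown stages and of GO2. The 3 analysed theca and stroma markers summed to 0.289 and 0.560 RPKM in KO nFGO libraries, against 2.43 and 2.58 RPKM in WT nFGO libraries. At FGO they summed to 0.258 and 0.152 RPKM in KO libraries, against 1.90 and 2.96 RPKM in WT libraries. Most of the WT sums was Dcn, a matrix proteoglycan of stromal cells, which had 0.15 and 0.26 RPKM in KO nFGO libraries, against 2.22 and 2.16 RPKM in WT nFGO libraries. At FGO it had 0.179 RPKM in 1 KO library and was listed at 0 in the other, against 1.76 and 2.86 RPKM in WT libraries. Dcn was not called at either stage (limma adjusted p = 0.204 at nFGO and 0.143 at FGO), and was called lower in KO in the mean of the 4 stages (-1.21, limma adjusted p = 0.0204). That value was -0.79 (limma adjusted p = 0.000348) without WT GO2 replicate 1, which had 11.5 RPKM. Dcn was listed at 0 in 3 libraries and reached 1 RPKM in WT libraries only. It therefore passed the filter only through the genotype where it was higher, which limits what its call can show. Hsd3b1, a steroid-forming enzyme of theca cells, had fold changes of -0.07 at nFGO and 0.10 at FGO, neither called. Pdgfra, too low to be tested, overlapped between genotypes at nFGO. At FGO Pdgfra had 0.016 and 0.028 RPKM in KO libraries, against 0.110 and 0.094 RPKM in WT libraries. At GO1 the sums overlapped, with 1.22 and 1.15 RPKM in KO libraries and 2.59 and 0.993 RPKM in WT libraries. At GO2 the sums did not overlap, with 0.551 and 0.843 RPKM in KO libraries and 12.5 and 2.26 RPKM in WT libraries. Dcn at GO2 had 0.182 RPKM in 1 KO library and a listed 0 in the other, against 11.5 and 0.233 RPKM in WT libraries. Granulosa cell markers, from cells that themselves express Cdh2, summed at nFGO to 64.6 and 73.1 RPKM in KO libraries and 45.4 and 43.3 RPKM in WT libraries. Most of this was Cyp19a1, the aromatase, at 42.8 and 40.0 RPKM in KO libraries and 28.9 and 23.6 RPKM in WT libraries, which was not called there (limma adjusted p = 0.140). Called higher in KO at nFGO were Fshr (1.344), Inha (1.87) and the macrophage marker Cd68 (0.75), while Kitl (-0.38) and Nr5a2 (0.02) were not called. In the mean of the 4 stages Fshr (0.47), Cyp19a1 (0.66) and Cd68 (0.40) were called higher in KO. Inha, Kitl and Nr5a2 were not called there. Cyp19a1 was also called higher in KO at GO2 (1.58). At FGO none of these genes was called, with 0.79 for Fshr, 0.49 for Inha and -0.45 for Kitl. Inha and Inhba were each listed at 0 in 1 library. The part of these cells in the Cdh2 and Gjc1 results was not tested.

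Cdh3 encodes P-cadherin, named from placenta and found in several epithelia. The gene (ENSMUSG00000061048.8) lies on chromosome 8, at 106510891 to 106557297 on the plus strand of mm10, 46.1 kb before the start of Cdh1 on the same strand. In GO1 oocytes Cdh3 had 4.53 and 3.81 RPKM in KO libraries, against 3.50 and 3.34 RPKM in WT libraries. In GO2 oocytes it had 4.19 and 3.55 RPKM in KO libraries, against 5.62 and 5.60 RPKM in WT libraries. KO thus lay above WT at GO1 and below it at GO2, without overlap at either stage. In nFGO oocytes it had 1.19 and 1.43 RPKM in KO libraries, against 1.29 and 1.07 RPKM in WT libraries. In FGO oocytes it had 2.02 and 1.36 RPKM in KO libraries, against 1.70 and 1.20 RPKM in WT libraries. The genotypes overlapped in both fully grown stages.

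Neither growing-stage difference of Cdh3 was called, with log2 fold changes of 0.22 at GO1 and -0.44 (SE 0.18, limma adjusted p = 0.146) at GO2. The change between them, the KO effect at GO2 less that at GO1, was -0.67 (limma adjusted p = 0.145) and was not called. In the fully grown stages the fold changes were 0.09 at nFGO and 0.13 at FGO, with 95% intervals of -0.29 to 0.47 and -0.25 to 0.51. The FGO value was -0.02 without WT FGO replicate 2. The mean of the 4 stages was -0.001 (95% interval -0.19 to 0.19).

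**Figure D2:**
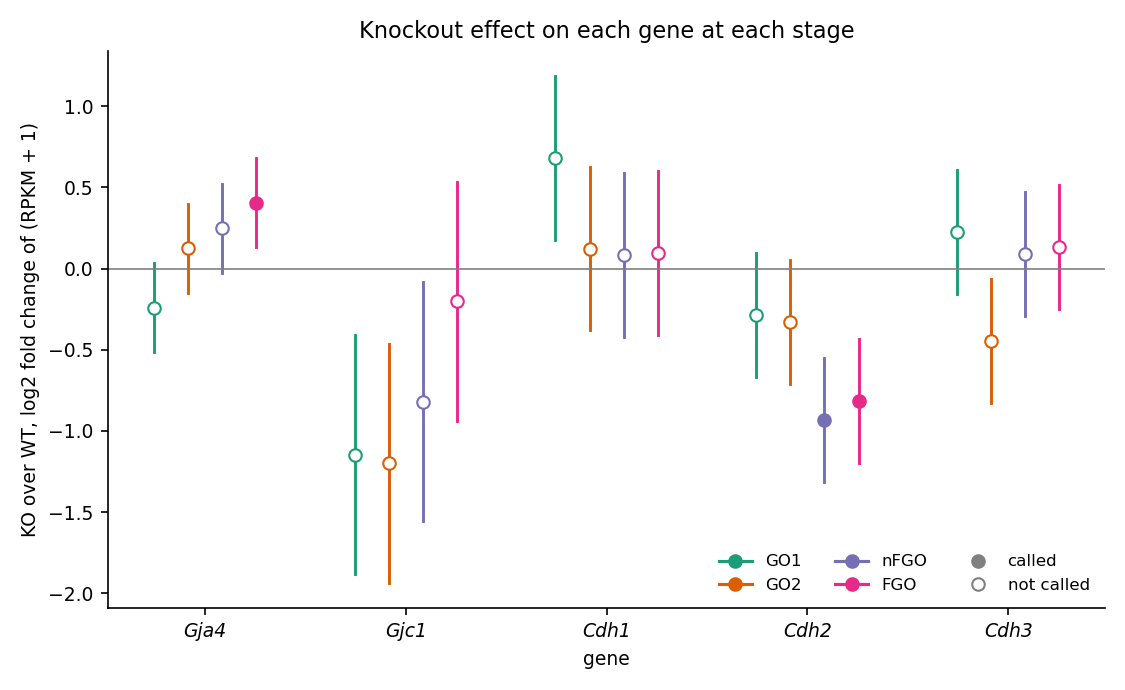
Log2 fold change of (RPKM + 1), KO over WT, for each gene at each stage (colours), with 95% intervals from limma; filled points were called and open points were not. Cdh2 at nFGO (-0.93) and FGO (-0.82) and Gja4 at FGO (0.41) were called, and the widest intervals belong to Gjc1.

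Non-overlap of the 2 KO and 2 WT libraries was common across the whole table. It was seen in 5 of 5 genes at GO1, where 50.3% of all genes tested did not overlap, in 4 of 5 at GO2 (60.5% of all genes), in 4 of 5 at nFGO (61.2%) and in 2 of 5 at FGO (59.9%). The size of the KO effect was also set against itself between stages. No gene of the 5 was called in the KO effect at GO2 less that at GO1 (4% of all genes called), at FGO less that at GO2 (3.8%) or at FGO less that at nFGO (0.0618%). In the comparisons added after the values were seen, the count was again 0 of 5 for FGO less GO1 (3.48% of all genes) and for nFGO less GO1 (2.45%). At an unadjusted p below 0.05, limma gave 1, 1, 0, 1 and 2 genes in these 5 comparisons. So no KO effect of these genes was shown to differ between stages. Without KO GO1 replicate 2 the first of these counts moved. The counts for FGO less GO1 and nFGO less GO1 also moved with 1 of their libraries left out. Under the other settings each of these 2 was 0 to 1. Without WT FGO replicate 2 the 3 comparisons that use FGO again gave 0 of 5.

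Over growth, the genes with low levels changed more than Gja4, and in opposite directions. In WT oocytes Cdh3 and Gjc1 fell and Cdh2 rose between GO2 and both fully grown stages. Cdh3 changed by -1.44 on the log2 scale between GO2 and FGO (limma adjusted p = 4.27e-05) and by -1.60 between GO2 and nFGO (limma adjusted p = 1.61e-05). Its WT mean was 5.61 RPKM at GO2, 1.18 RPKM at nFGO and 1.45 RPKM at FGO. Gjc1 changed by -1.91 between GO2 and FGO (limma adjusted p = 0.000637) and by -1.27 between GO2 and nFGO (limma adjusted p = 0.00750). Cdh2 changed by 0.90 between GO2 and FGO (limma adjusted p = 0.00125) and by 1.50 between GO2 and nFGO (limma adjusted p = 2.67e-05), the highest mean being 4.17 RPKM at nFGO. Cdh1 was called only for nFGO over GO2 (0.70, limma adjusted p = 0.0237), a call lost without WT GO2 replicate 1, WT nFGO replicate 1 or WT nFGO replicate 2 (limma adjusted p = 0.0796 to 0.137). Its FGO over GO2 value was 0.55 (limma adjusted p = 0.0671), and 0.74 (limma adjusted p = 0.0535) without WT FGO replicate 2. Without WT FGO replicate 2 the WT FGO over GO2 values were -1.66 for Gjc1, 0.99 for Cdh2 and -1.29 for Cdh3, all still called. Without WT nFGO replicate 1 the nFGO over GO2 value of Gjc1 was -0.76 and no longer called (limma adjusted p = 0.0911). In all, 3 of 5 genes were called for WT FGO over GO2, where 48.4% of all genes were called, and 4 of 5 for WT nFGO over GO2, against 51.9% of all genes.

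KO oocytes showed the same directions. For KO nFGO over GO2, 4 of 5 genes were called, against 45.8% of all genes. They were Gjc1 (-0.89), Cdh1 (0.66), Cdh2 (0.89) and Cdh3 (-1.07). For KO FGO over GO2, 3 of 5 were called, against 41.7% of all genes, namely Gja4 (0.40, limma adjusted p = 0.0236), Gjc1 (-0.91, limma adjusted p = 0.0475) and Cdh3 (-0.86, limma adjusted p = 0.00201). In that comparison Cdh2 had 0.41 (limma adjusted p = 0.0829) and was not called. Whether growth changed Cdh2 less in KO than in WT is the KO effect at FGO less that at GO2, which was -0.49 (limma adjusted p = 0.293) and not called, nor was it without WT FGO replicate 2 (-0.59, limma adjusted p = 0.313). The calls of Gja4, Gjc1 and Cdh1 in KO growth did not hold with single KO libraries left out. Gja4 for FGO over GO2 was lost without either KO GO2 replicate or KO FGO replicate 2 (limma adjusted p = 0.0830 to 0.206). Gjc1 was lost without any 1 of the 4 KO libraries compared, with limma adjusted p = 0.0583 to 0.248 for FGO over GO2 and 0.0555 to 0.248 for nFGO over GO2. Cdh1 for nFGO over GO2 was likewise lost without any 1 of its 4 libraries (limma adjusted p = 0.0886 to 0.138).

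Between the 2 growing sizes, and between hormone-primed and unprimed fully grown oocytes, no gene of the group was called. The backgrounds were 7.55% of all genes for WT GO2 over GO1, 9.5% for KO GO2 over GO1, 2.69% for WT FGO over nFGO and 4.23% for KO FGO over nFGO. At an unadjusted p below 0.05, limma gave 3 genes (Gja4, Cdh1, Cdh3) for WT GO2 over GO1 and 0 genes for KO GO2 over GO1. It gave 2 genes (Gja4, Cdh2) in each FGO over nFGO comparison. For Gja4, FGO over nFGO gave 0.49 in KO (limma adjusted p = 0.0523) and 0.33 in WT (limma adjusted p = 0.207). The WT value was 0.21 (limma adjusted p = 0.612) without WT FGO replicate 2.

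Cdh1 and Cdh3 lie near each other on chromosome 8, and 3 other RefSeq genes (GRCm38.p6) touch the 46.1 kb between them. Between GO2 and the fully grown stages Cdh3 fell and Cdh1 rose, so their ratio changed. The rise of Cdh1 was called for nFGO and not for FGO, in either genotype. Between GO1 and GO2 of WT oocytes both genes had positive log2 fold changes (0.64 for Cdh1 and 0.58 for Cdh3), neither called. Cdh1 RPKM divided by Cdh3 RPKM was 1.99 to 3.29 in growing KO libraries, against 1.66 to 2.02 in growing WT libraries. In fully grown oocytes it was 8.72 to 15.6 in KO libraries, against 10.5 to 16.2 in WT libraries. Fully grown libraries of either genotype did not overlap with growing ones, while KO and WT overlapped within the fully grown stages. Within each growing stage the KO ratios lay above the WT ratios without overlap. They were 3.25 and 1.99 in KO against 1.79 and 1.86 in WT at GO1. At GO2 they were 2.60 and 3.29 in KO against 1.66 and 2.02 in WT. The ratio was not tested between genotypes.

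**Figure D3:**
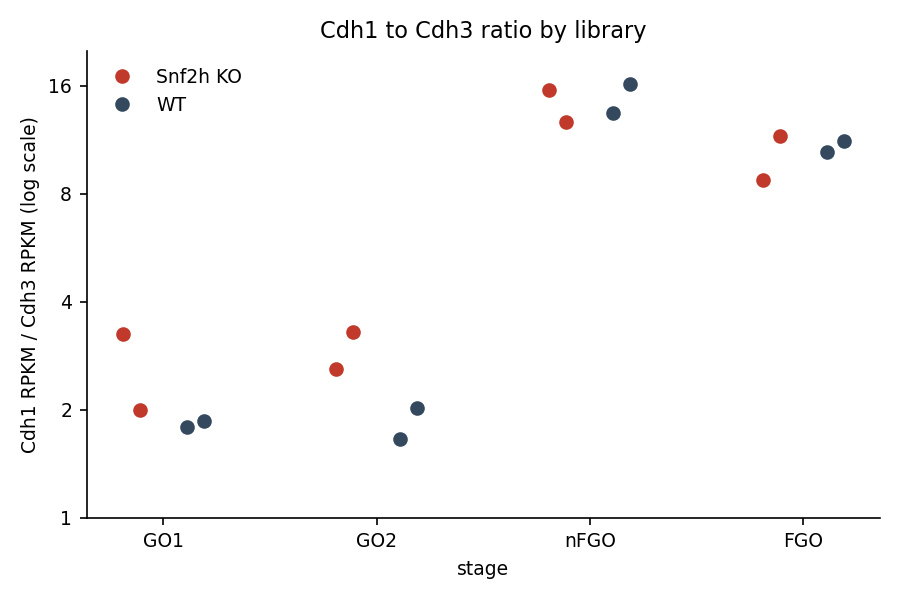
Cdh1 RPKM divided by Cdh3 RPKM in each library (y axis, log scale), by stage, with KO left of WT. Growing oocytes lie between 1.66 and 3.29 and fully grown oocytes between 8.72 and 16.2.

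Set in order of level, Gja4 was first and Cdh1 second in all 16 libraries. Cdh3, Gjc1 and Cdh2 followed in that order in the growing libraries, except that Gjc1 (5.25 RPKM) passed Cdh3 (3.34 RPKM) in WT GO1 replicate 2. In fully grown WT and in KO nFGO libraries Cdh2 took the third place. In both KO FGO libraries Cdh3 took the third place, with 2.02 and 1.36 RPKM of Cdh3 beside 1.19 and 0.70 RPKM of Cdh2. Gjc1 was last in the fully grown libraries, except in WT nFGO replicate 2, where it had 1.62 RPKM and Cdh3 1.07 RPKM. Among neighbours in this order, Gjc1 and Cdh3 overlapped between libraries in WT GO1 and in WT nFGO oocytes, and so could not be placed above or below each other there. Across the 8 group means, as a description, log2 levels of Gjc1 and Cdh1 had r = -0.87, Cdh2 and Cdh3 r = -0.80, Cdh1 and Cdh3 r = -0.78 and Gjc1 and Cdh3 r = 0.77. These points share the split between growing and fully grown oocytes.

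The genes most like each in pattern were ranked by Pearson r of log2(RPKM + 1) over the 8 group means, among the other tested genes that reached a group mean of 5 RPKM. For Gja4 they were Atat1 (r = 0.947), Traf7 (0.938) and D230025D16Rik (0.937). Only 18 of 10638 candidates exceeded r = 0.9 with Gja4, against 148 for Gjc1, 474 for Cdh2, 605 for Cdh1 and 748 for Cdh3. For Gjc1 the nearest were Gm6871 (0.976), Brms1l (0.968) and Kctd5 (0.964). For Cdh1 they were Mcmbp (0.992), Lsm14a (0.989) and March6 (0.987), and for Cdh2 Gm40614 (0.991) and Ssx2ip (0.990). For Cdh3 they were Tra2a (0.996), Scyl3 (0.991) and B230219D22Rik (0.987).

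Other genes of gap junctions and cadherin adhesion were taken from 5 lists of 73 genes in all, of which 41 were tested. At GO1, 0 were called higher and 2 lower in KO, 4.88% of those tested beside 6.63% of all genes. At GO2, 1 was higher and 4 lower, 12.2% beside 7.64% of all genes. At nFGO 5 were higher and 6 lower, 26.8% of those tested beside 16.2% of all genes. At FGO 4 were higher and 4 lower, 19.5% beside 17.8% of all genes. The lists' median log2 fold changes were 0.04, 0.04, -0.14 and -0.06 at GO1, GO2, nFGO and FGO, beside -0.03, -0.003, -0.01 and -0.01 over all genes tested. The counts of the single lists stand beside the same shares of all genes called, 6.63%, 7.64%, 16.2% and 17.8% at the 4 stages, and each list holds few genes for a share.

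Of 3 alpha-catenins tested, which couple the cadherin complex to actin, 2 were called, in opposite directions. Ctnna3 was lower in KO at every stage, with log2 fold changes of -0.87 at GO1, -0.996 at GO2, -1.14 at nFGO and -1.59 at FGO. At FGO it had 9.46 and 7.13 RPKM in KO libraries, against 28.7 and 25.0 RPKM in WT libraries (limma adjusted p = 6.06e-05). Ctnna2 was higher in KO in fully grown oocytes. At FGO it had 50.4 and 49.8 RPKM in KO libraries, against 17.8 and 24.4 RPKM in WT libraries (1.23, limma adjusted p = 0.00105), and at nFGO its fold change was 0.91 (limma adjusted p = 0.00663). Ctnna1, at 10.7 to 36.1 RPKM over all libraries, was called at no stage, with fold changes of -0.16, 0.04, -0.31 and -0.09 at GO1, GO2, nFGO and FGO.

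Of the 14 catenin and nectin genes tested, 0 were higher and 1 lower at GO1, 1 higher and 3 lower at GO2, 2 higher and 2 lower at nFGO, and 2 higher and 1 lower at FGO. Nectin3, an immunoglobulin-like adhesion molecule of adherens junctions, was higher in KO at nFGO (0.42) and FGO (0.51). Its FGO values were 387 and 359.7 RPKM in KO libraries, against 268 and 255 RPKM in WT libraries. Afdn, the actin-binding partner of nectins, was lower at GO2 (-0.40, limma adjusted p = 0.0446), and Ctnnal1, an alpha-catenin-like protein, was higher there (0.64, limma adjusted p = 0.0324).

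Among 6 connexin scaffold and trafficking genes tested, 0 were called at GO1, 1 lower at GO2, 1 higher and 1 lower at nFGO, and 0 at FGO. Tjp1 encodes ZO-1, which binds the tails of several connexins. At nFGO it had 11.9 and 12.3 RPKM in KO libraries, against 23.5 and 33.1 RPKM in WT libraries (-1.15, limma adjusted p = 0.00390). Nedd4, a ubiquitin ligase of connexin 43, was lower in KO at GO2 (-0.96, limma adjusted p = 0.0114).

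Of 6 filopodia and microvilli genes tested, 1 was lower at GO1, 0 were called at GO2, 1 was higher and 2 lower at nFGO, and 1 was lower at FGO. Rdx, which encodes radixin, a linker of membrane to actin in microvilli, was abundant and was lower in KO at 3 stages. At FGO it had 1527 and 1478 RPKM in KO libraries, against 2099 and 2270 RPKM in WT libraries (-0.54, limma adjusted p = 0.000966). Daam1, a formin, was lower at nFGO, with means of 33.3 RPKM in KO oocytes and 58.7 RPKM in WT oocytes (-0.82, limma adjusted p = 0.00424).

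The lists of other connexins with pannexins (7 tested) and other cadherins (8 tested) had no call at GO1 or GO2. Gja3 was higher in KO at nFGO and FGO, and Gjb2 was higher at FGO. Cdh17 was lower at nFGO, and Cdh19 and Cdh20 were lower at FGO. These 5 had KO and WT means below 5 RPKM at the stages of their calls and are named here after their values were seen. Of the 16 calls of named genes in the 5 lists, 7 held with each library of the comparison left out in turn. These were Ctnna3, Tjp1 and Daam1 at nFGO and Ctnna2, Ctnna3, Nectin3 and Rdx at FGO. The Ctnna3 call at GO1 was lost without KO replicate 1 or either WT replicate (limma adjusted p = 0.0554 to 0.0613), and the GO2 call without KO replicate 2 (limma adjusted p = 0.0700). Afdn, Ctnnal1 and Nedd4 at GO2, Ctnna2, Nectin3 and Rdx at nFGO and Rdx at GO1 each lost the call without 1 or more libraries.

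**Figure D4:**
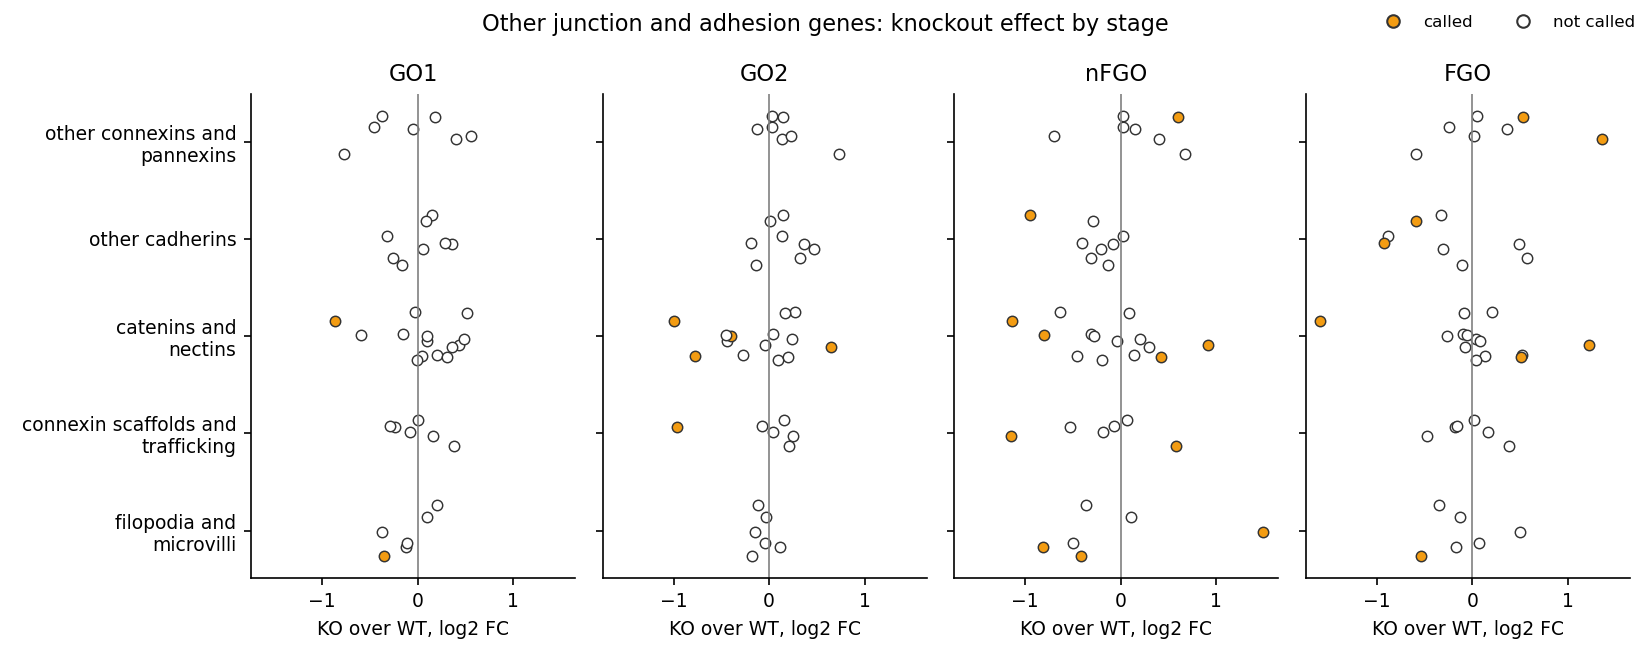
Log2 fold change, KO over WT, of the 41 tested genes of 5 junction and adhesion lists (rows) at each stage (panels); each point is a gene, filled where called, and vertical offsets within a row only separate the points. The lowest point is Ctnna3 at FGO (-1.59), and the filopodia and microvilli row has a median of -0.39 at nFGO.

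Log2 fold changes of counts between the genotypes stand in the authors' deposited table beside the RPKM values. Their direction is not stated in the headers, and those of Smarca5, marked down-regulated, are negative at every stage. Cdh1 at GO1, marked up-regulated, has a positive value (0.84), so the values read as KO over WT. For Gja4, Cdh1 and Cdh3 the log2 ratio of mean RPKM (KO over WT) and the fold change in the authors' deposited table differed by at most 0.032. Those of Cdh2 differed by more. Its fold changes in the authors' deposited table were -1.82 at GO1, -1.08 at GO2, -1.66 at nFGO and -2.08 at FGO. The log2 ratios of its mean RPKM were -0.92, -0.84, -1.29 and -1.35 at the same stages. The difference of 0.90 at GO1 was larger than that of 98.3% of the 14400 genes with a mean of at least 0.3 RPKM in both genotypes, and the 0.73 at FGO larger than that of 96.9% of such genes. The 0.24 at GO2 and 0.37 at nFGO were larger than those of 85.2% and 87.7% of such genes. Both values of Cdh2 were negative at each stage. For Gjc1 the log2 ratio of mean RPKM less the fold change in the authors' deposited table was -0.34 at GO1 and -0.71 at nFGO, where 1 KO library is listed at 0, and within 0.003 at GO2 and FGO.

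**Figure D5:**
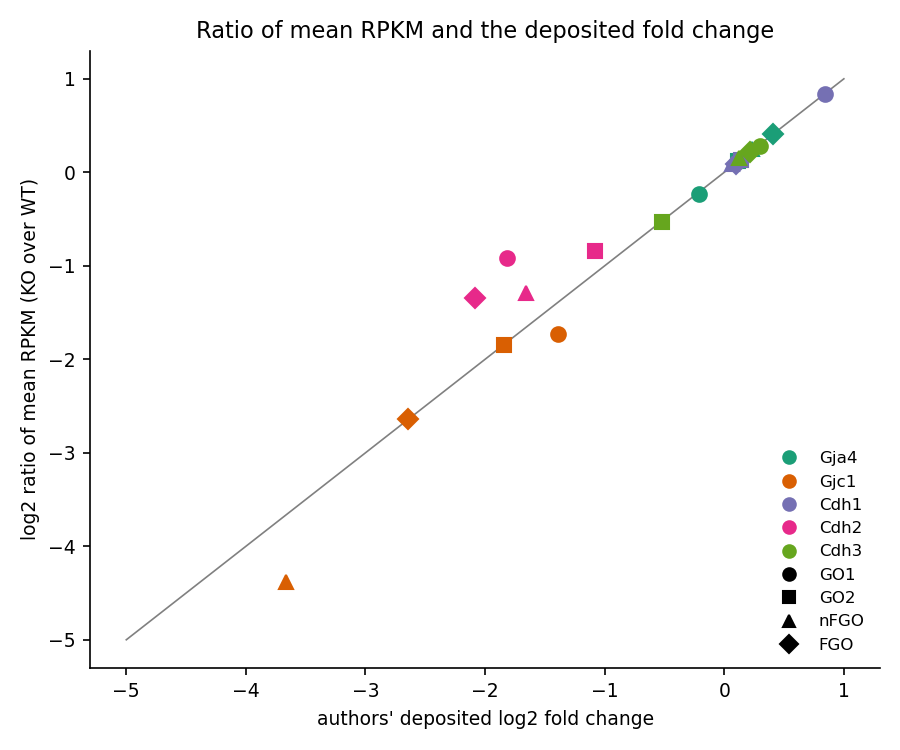
Log2 ratio of mean RPKM (KO over WT, y axis) against the log2 fold change in the authors' deposited table (x axis) for the 5 genes (colours) at 4 stages (symbols); the line marks equal values. The 4 Cdh2 points lie above the line, by 0.24 to 0.90, and all points of Gja4, Cdh1 and Cdh3 lie on it within 0.032.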

How the data were processed

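The 16 RNA-seq libraries were analysed from 1 table of RPKM values that the authors deposited. The submitters' processing notes name HISAT2 2.1.0, Trim Galore 0.4.5, DESeq 1.34.1, Cuffnorm, Cufflinks 2.2.1 and mm10. Per the labels, cDNA was made with a SMARTer kit and libraries with Nextera XT, which do not mark strand, so reads of overlapping genes cannot be assigned to a strand. The table also holds log2 fold changes and p-values that the authors deposited from DESeq, per the file headers, with no direction or adjustment stated. These p-values were not used in any test. The mean counts of groups headed A and B were not used, since no genotype is given for them. RPKM totals are not read depths, and whole reads could not be recovered, since 23.7 to 30.9% of ratios of values under 0.2 RPKM lay within 0.02 (log2) of small whole-number ratios.

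From 18060 lines, 35 gene IDs (1120 lines) with conflicting values were left out, leaving 16940 genes. No gene of 10 that every cell uses was listed at 0 in any library, but 19 genes were at 0 in 1 library and at 100.0 RPKM or more in another. R 4.3.3 and limma 3.58.1 were used, with a variance trend, on log2(RPKM + 1). The fit had 1 mean per group over all 16 libraries and a Benjamini-Hochberg threshold of 0.05 within each comparison, and was checked on simulated data. Named list genes were up to 3 per list and stage with the largest called fold change at 5 RPKM or more in the higher group. A gene of the lists and a gene that the likeness ranking names are not reported here, and the list counts leave the first out. The members and lists were chosen with earlier results of these data known. Alternatives were other pseudocounts, filters, scalings, sample sets, the variance trend, a replicate block and leaving out each library, which assumes that a lone library varies like the other groups. The 8 ATAC-seq samples were not analysed here.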

Additional observations from a re-analysis of the deposited data

How the results depend on the processing

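Deviations of same-numbered KO and WT libraries had r = -0.008, -0.019, 0.073 and 0.096 at GO1, GO2, nFGO and FGO. The labels do not say what a replicate number shares, and these values cannot settle it. With the replicate number as a block, the count of called genes among the 5 was 1 instead of 0 for KO FGO over KO nFGO. Under the block Ctnnal1 and Afdn at GO2 lost their calls (limma adjusted p = 0.0634 and 0.0802). The count was also 1 instead of 0 for KO FGO over nFGO with a pseudocount of 5, a filter of 5 RPKM, quantile normalization or equal medians. It was 1 instead of 0 at GO1 and for WT FGO over nFGO with a pseudocount of 5, at GO2 with a pseudocount of 5, equal medians or no nFGO libraries, and for WT GO2 over GO1 with a pseudocount of 5, quantile normalization, no variance trend or the compared groups alone. At FGO it was 1 instead of 2 with no filter, a filter of 5 RPKM, no variance trend or no nFGO libraries, and 0 with the compared groups alone. KO FGO over GO2 gave 1 instead of 3 with quantile normalization. Some settings called more genes. Over these settings the count ran from 1 to 4 for KO FGO over GO2. It ran from 2 to 5 for WT nFGO over GO2, against 4 in the main fit, and from 0 to 3 in the mean of the 4 stages, against 2. A filter of 5 RPKM removes the low genes and gave 0 at nFGO, 0 in the mean of the 4 stages, 1 for WT FGO over GO2 and 2 for nFGO over GO2 in either genotype.

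Leaving out 1 library gave 0 to 2 called genes at GO1, 0 at GO2, 1 to 2 at nFGO, 0 to 2 at FGO, 2 to 3 in the mean of the 4 stages, 3 for WT FGO over GO2, 2 to 4 for WT nFGO over GO2, 1 to 2 for KO FGO over GO2, 2 for KO nFGO over GO2, 0 to 1 for KO FGO over nFGO and 0 to 2 for the KO effect at GO2 less that at GO1. The counts for the KO effect at FGO less that at GO1 and at nFGO less that at GO1 also moved with 1 library left out. A set of 5 uncalled values near 0 changed sign. Cdh3 in the mean of the 4 stages was 0.022 with a pseudocount of 0.1 and 0.018 with equal medians, and ran from -0.045 to 0.043 with 1 library left out. The other 4 changed sign only then, with ranges of -0.046 to 0.31 for Cdh3 at FGO, -0.45 to 0.047 for Gjc1 at FGO, -0.0066 to 0.25 for Cdh1 at GO2 and -0.092 to 0.29 for Cdh1 at FGO. The cause was not tested. Read depth is unknown, and Gjc1 in fully grown oocytes lies near or at 0 RPKM, which limits what can be said of it there.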
